A study of Homo sapiens with 6 samples.

Results

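The genes described here encode the retinoblastoma (RB) family of pocket proteins (RB1, RBL1 and RBL2), the MuvB core complex (LIN9, LIN37, LIN52, LIN54 and RBBP4) and the transcription factors B-MYB (MYBL2) and FOXM1. They were found by symbol among the 58825 Ensembl genes of the deposited count matrix. All 10 were present, and all 10 passed the filter on low counts. The RNA-seq data came from SKOV3, an established human epithelial ovarian cancer cell line. Cells were transiently transfected with a siRNA against EIF5A2 (si-EIF5A2, n = 3 libraries) or with the negative control (NC, 3 libraries), and the series description gives 48 h of treatment. EIF5A2 encodes a translation factor, and the comparison asks which transcripts differ after its knockdown. A single siRNA duplex and a single cell line were used, so effects of the duplex other than on EIF5A2 cannot be told apart from effects of the knockdown. The labels do not say whether the replicates were separate cultures. The p-values therefore measure the spread between these libraries, which may be technical.

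Pocket proteins hold cell cycle genes silent in resting cells and in early G1. RB1 binds the activating E2F factors and releases them once cyclin-dependent kinases phosphorylate it, whereas RBL1 (p107) and RBL2 (p130) join E2F4 or E2F5, their DP partner and MuvB to form the repressor complex DREAM. When cells enter S phase, MuvB leaves the pocket protein and binds B-MYB and later FOXM1, and in that form it activates genes needed in G2 and mitosis, so that the same core serves repression and activation. In proliferating tumor cells MYBL2 and FOXM1 are usually abundant, and each is itself a target of this system.

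EIF5A2 fell to 12.7% of its NC level, from 29.1 ± 1.15 to 3.69 ± 0.817 CPM (counts scaled to the size of the library; mean ± SD, n = 3). Library totals ranged from 46900204 to 74142267 estimated counts, and the lowest count of any of the 10 genes was 81, for LIN9 in si-EIF5A2 replicate 3. A single sequenced fragment added about 3.69 counts, so that value stands for about 22 fragments. Of 8 epithelial ovarian cancer markers 7 averaged above 1 CPM, whereas MUC16 was at 0 in all 6 libraries, and their summed level was 1500 to 1670 CPM in NC and 956 to 1170 CPM in si-EIF5A2. Leukocyte markers, of which 3 of 5 were at 0 in every library, summed to at most 0.155 CPM. Endothelial markers summed to 1.94 to 2.37 CPM in NC and 0 to 1 in si-EIF5A2, and fibroblast markers to 0.872 to 1.41 and 0.861 to 3.00. The part of these marker differences in the results was not tested. Fewer cells in a cell cycle phase and less RNA per cell cannot be told apart in such bulk libraries, and no measurement of the cell cycle itself was analysed here.

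Promoter windows are shown because E2F factors, DREAM and MuvB act through short DNA elements, which these genes can carry as well as read. RefSeq windows from 250 bases before to 50 bases after an annotated start (GRCh38.p14) were given for 9 of the 10 genes, 15 windows in all. No window was given for FOXM1, so its promoter was not searched. These windows were searched on both strands for the cell cycle homology region (CHR; TTTGAA or TTCGAA), for the CCAAT box, for E2F elements (TTCCCGC or TTGGCGC), for the MYB element AACGG and for the forkhead element TAAACA. A further E2F-like run, TTGGCGG, was added after the windows had been seen. The windows below belong to MYBL2 (chr20:43666864-43667163, plus strand, across the annotated 5′ end of the gene), LIN9 (chr1:226309454-226309753, minus strand, inside the annotated gene near its 5′ end), LIN52 (chr14:74084706-74085005, plus strand, across the annotated 5′ end) and RBL2 (chr16:53434221-53434520, plus strand, inside the annotated gene near its 5′ end). The first 3 genes fell and RBL2 did not. These windows do not stand for the rest, since RBL1 and RBBP4, which were not called, also hold an E2F element. LIN9 and RBL2 have further windows that are not printed but are counted below. Capitals mark every match, 5′ to 3′ on the strand of the gene.
MYBL2: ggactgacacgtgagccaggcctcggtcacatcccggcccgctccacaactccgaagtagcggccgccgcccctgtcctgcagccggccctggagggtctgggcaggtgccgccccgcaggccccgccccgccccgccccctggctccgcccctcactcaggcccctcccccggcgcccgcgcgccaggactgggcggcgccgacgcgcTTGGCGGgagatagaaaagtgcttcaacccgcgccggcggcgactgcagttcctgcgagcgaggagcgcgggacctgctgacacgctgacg
LIN9: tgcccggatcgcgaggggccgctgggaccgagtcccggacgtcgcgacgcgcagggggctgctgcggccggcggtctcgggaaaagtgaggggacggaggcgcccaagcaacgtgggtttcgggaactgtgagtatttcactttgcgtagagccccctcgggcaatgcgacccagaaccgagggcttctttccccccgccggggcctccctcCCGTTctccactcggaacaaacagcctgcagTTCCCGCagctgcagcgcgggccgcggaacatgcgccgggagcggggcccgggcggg
LIN52: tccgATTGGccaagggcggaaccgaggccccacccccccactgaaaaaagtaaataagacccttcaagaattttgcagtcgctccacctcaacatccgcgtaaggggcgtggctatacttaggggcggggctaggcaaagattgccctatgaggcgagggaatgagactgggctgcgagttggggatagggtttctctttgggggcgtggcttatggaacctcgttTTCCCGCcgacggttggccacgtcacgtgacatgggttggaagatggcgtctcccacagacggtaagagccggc
RBL2: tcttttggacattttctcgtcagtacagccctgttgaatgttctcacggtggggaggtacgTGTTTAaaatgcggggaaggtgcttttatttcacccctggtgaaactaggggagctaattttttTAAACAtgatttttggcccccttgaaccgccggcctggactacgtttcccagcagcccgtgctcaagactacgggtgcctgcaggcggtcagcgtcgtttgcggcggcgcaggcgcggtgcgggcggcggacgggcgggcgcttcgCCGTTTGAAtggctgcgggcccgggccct
The MYBL2 window held the run TTGGCGG at -41, counting its first base from the start site, and no match to the other letters. The LIN9 window held an E2F element at -7 and a MYB element on the opposite strand at -38. In LIN52 the E2F element lay at -24, and a CCAAT box on the opposite strand lay at -246. RBL2 carried forkhead elements at -189 and -125, the former on the opposite strand, and a CHR at base 25 after it that overlapped a MYB element on the opposite strand.

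Among the 9 genes with a window, an E2F element was present in RBL1, LIN9, LIN52 and RBBP4, compared with 11.0% of the 27305 genes with a window (9.23% of 35116 windows). The run TTGGCGG was present in MYBL2 and LIN54, compared with 4.18% of genes (3.43% of windows). A CHR was found in RBL2, LIN9, LIN37 and LIN54 and occurs in 19.5% of genes (16.4% of windows). A CCAAT box was found in RBL2, LIN37, LIN52 and RBBP4, 4 of 9, which is near the 39.7% of all genes that hold one (34.6% of windows). MYB elements were found in RBL1, RBL2 and LIN9 and occur in 23.0% of genes (19.7% of windows), and forkhead elements, which occur in 14.7% of genes (12.3% of windows), were found in RBL2. The RB1 window (chr13:48476200-48476499, plus strand) lay well inside the gene rather than at its annotated 5′ end, and held none of these letters. Among genes of the list of G2/M genes used below, 30 of 41 with a window had a CHR, and among the G1/S genes 30 of 40 had an E2F element. A match of letters describes a window and is not evidence of binding.

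Of the 10 genes, 5 fell after EIF5A2 knockdown by edgeR's quasi-likelihood test (fold change over 1.5 and Benjamini-Hochberg adjusted p under 0.05): MYBL2, FOXM1, LIN9, RB1 and LIN52. Over all 16208 genes tested 13.6% fell by the same rule, and 24.6% were called in either direction. None of the 10 rose, with 0 above NC at an unadjusted p under 0.05 and 0 by DESeq2, compared with 11.1% of all genes tested. The median log2 fold change was -0.55 for the 10 genes and -0.01 for all genes tested. In 8 of the 10 genes the log2 fold change was below 0, as in 50.7% of all genes tested. In 7 of the 10 the highest knockdown value lay under the lowest NC value, compared with 26.5% of all genes tested (51.2% had ranges that did not overlap in either direction), and in the other 3 (RBL2, LIN37 and RBBP4) the groups overlapped.

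**Figure D1:**
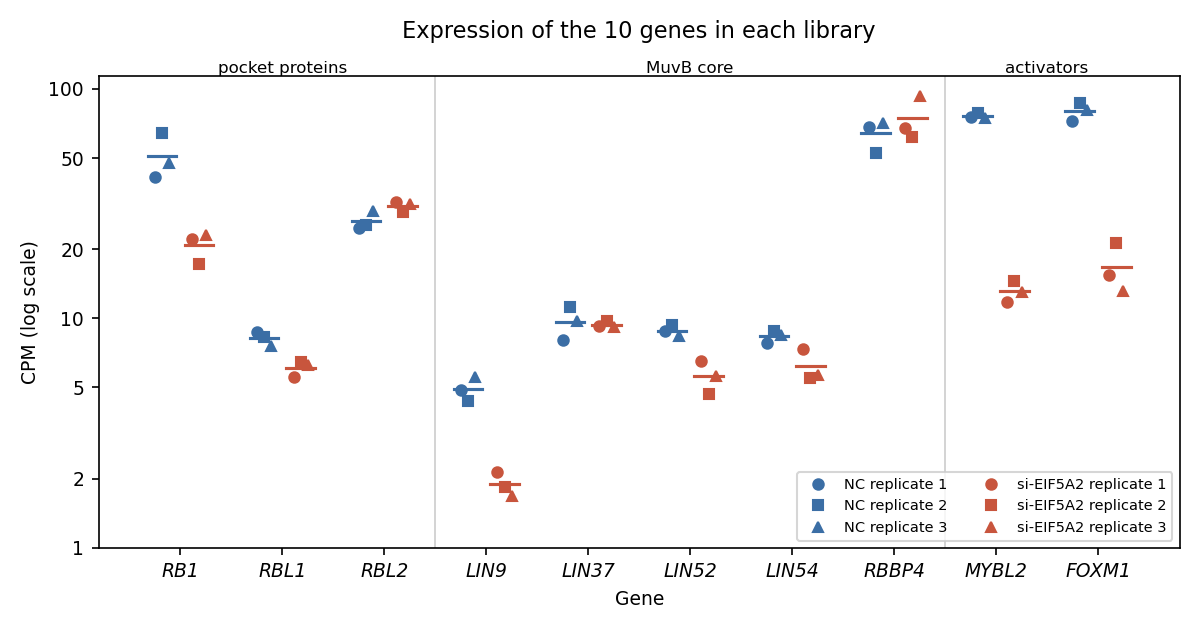
Expression of the 10 genes in each library. The vertical axis is CPM on a log scale, each point is a library (blue for NC, red for si-EIF5A2, with a shape for each replicate number), and each bar is a group mean. MYBL2 and FOXM1 are separated from NC by the widest gaps, and RBL2, LIN37 and RBBP4 overlap.

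The transcription factors that bind MuvB or its targets late in the cell cycle showed the largest falls of the group. MYBL2 encodes B-MYB, which joins MuvB in S phase. It measured 75.5, 78.6 and 74.9 CPM in the NC libraries and 11.8, 14.5 and 13.0 CPM in the si-EIF5A2 libraries. The replicates were tight in both groups, and the highest si-EIF5A2 library stood far below the lowest NC library. MYBL2 (chr20:43667019-43716496, plus strand) thus fell from 76.3 ± 1.99 to 13.1 ± 1.39 CPM, 5.83-fold lower, with a log2 fold change of -2.54 ± 0.10 (SE) and an edgeR adjusted p of 4.92e-06. Only 1.87% of the genes tested fell more.

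FOXM1 encodes a forkhead factor that is recruited to MuvB-bound promoters in G2. Its level was 72.3, 86.9 and 81.2 CPM in NC and 15.4, 21.4 and 13.2 CPM in si-EIF5A2. Every knockdown library was again well below NC, with replicate 2 the highest in both groups. The log2 fold change of FOXM1 (chr12:2857681-2877155, minus strand) was -2.26 ± 0.18 (SE, edgeR adjusted p = 8.91e-05), leaving 20.8% of the NC level, and 2.62% of the genes tested fell more. FOXM1 shares 781 exon bases, 15.9% of its exons, with ITFG2 on the opposite strand, and ITFG2 had 628 to 1000 counts in NC and 404 to 609 in si-EIF5A2. The share of reads exchanged between the overlapping genes was not tested. Within libraries the log2 ratio of MYBL2 to FOXM1 in CPM was -0.07 ± 0.11 (SD) in NC and -0.33 ± 0.27 in si-EIF5A2. These ranges overlapped (exact permutation p = 0.30, two-sided), so a difference between the falls of MYBL2 and FOXM1 was not detected.

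Of the MuvB subunits LIN9 and LIN52 fell, and LIN54, LIN37 and RBBP4 were not called. LIN9, a scaffold subunit needed to hold B-MYB, measured 4.85, 4.36 and 5.55 CPM in NC and 2.15, 1.84 and 1.69 CPM in si-EIF5A2. It was the least abundant of the 10 genes, and its groups were clearly apart. LIN9 (chr1:226231149-226309869, minus strand) fell to 38.5% of NC, with a log2 fold change of -1.38 ± 0.20 (SE, edgeR adjusted p = 0.00118).

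LIN52, the small subunit whose phosphorylation by DYRK1A lets MuvB bind the pocket proteins, was 8.81, 9.35 and 8.38 CPM in NC and 6.51, 4.66 and 5.61 CPM in si-EIF5A2. The groups did not overlap, and si-EIF5A2 replicate 1 lay closest to NC. LIN52 (chr14:74084796-74201235, plus strand) fell, with a log2 fold change of -0.66 ± 0.16 (SE, edgeR adjusted p = 0.0143). That call was lost without NC replicate 2 (log2 fold change -0.62, edgeR adjusted p = 0.0504) and without si-EIF5A2 replicate 2, when the fold change came under 1.5 (log2 fold change -0.55, edgeR adjusted p = 0.0368).

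LIN54 is the subunit that binds the CHR element. It measured 7.81, 8.79 and 8.49 CPM in NC and 7.39, 5.52 and 5.65 CPM in si-EIF5A2. All knockdown libraries were below NC, but si-EIF5A2 replicate 1 was only slightly so. LIN54 (chr4:82909973-83012926, minus strand) did not pass the test, with a log2 fold change of -0.43 ± 0.16 (SE, edgeR adjusted p = 0.0707). Without si-EIF5A2 replicate 1 it passed, at -0.59 (edgeR adjusted p = 0.0282).

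LIN37, a subunit required for repression by DREAM, measured 8.03, 11.2 and 9.70 CPM in NC and 9.25, 9.73 and 9.15 CPM in si-EIF5A2. The knockdown libraries fell within the NC range. The log2 fold change of LIN37 (chr19:35748361-35754519, plus strand) was -0.04 with a 95% interval from -0.40 to 0.31 (edgeR adjusted p = 0.864). AD000671.1, an overlapping gene on the same strand, shares 752 exon bases with it (26.7% of the LIN37 exons), and it had 122, 0 and 142 counts in NC and 0 in each si-EIF5A2 library. With those counts added, which was tried after seeing the data, the log2 fold change of LIN37 was -0.26 (edgeR adjusted p = 0.193). On the opposite strand AD000671.3 shares 1180 exon bases with LIN37 (41.8% of its exons). It had 46, 47 and 0 counts in NC and 35, 32 and 53 in si-EIF5A2.

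RBBP4 encodes a histone-binding protein that serves MuvB and several other chromatin complexes. It measured 68.1, 52.7 and 71.2 CPM in NC and 67.8, 61.8 and 93.4 CPM in si-EIF5A2, so that 1 library, si-EIF5A2 replicate 3, stood above all the rest. For RBBP4 (chr1:32651142-32686211, plus strand) the log2 fold change was 0.22 ± 0.18 (SE, edgeR adjusted p = 0.41), and 0.01 without that library. The processed pseudogene RBBP4P1 had 80 to 150 counts in NC and 129 to 135 in si-EIF5A2, so the split of RBBP4 reads between near-identical copies is uncertain.

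**Figure D2:**
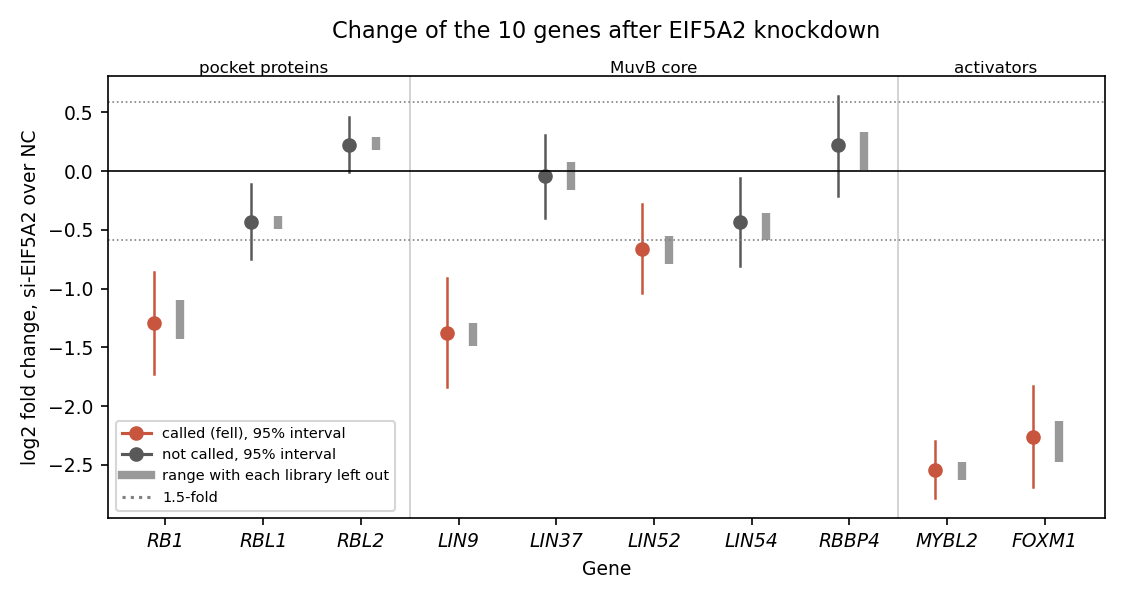
Change of the 10 genes after EIF5A2 knockdown. The horizontal axis is the gene, and the vertical axis is the log2 fold change of si-EIF5A2 over NC from edgeR. Thin bars are 95% confidence intervals (n = 3 libraries each). Thick gray bars are the range of the log2 fold change with each library left out in turn. MYBL2 and FOXM1 lie beyond -2, RB1 and LIN9 lie beyond -1, and the confidence intervals of RBL2, LIN37 and RBBP4 cross 0.

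Ratios within a library, which do not depend on its scaling, were compared for the MuvB genes. The log2 ratio of LIN37 to LIN9 was 0.97 ± 0.35 (SD) in NC and 2.32 ± 0.18 in si-EIF5A2, and that of LIN54 to LIN9 was 0.77 ± 0.21 and 1.70 ± 0.10. For LIN52 to LIN9 it was 0.85 ± 0.25 and 1.56 ± 0.20. LIN9 was therefore lower in every knockdown library relative to each of these subunits. Against LIN9, MYBL2 went from 3.96 ± 0.21 to 2.79 ± 0.30 and FOXM1 from 4.03 ± 0.25 to 3.12 ± 0.37 on the log2 scale. None of these 5 ratios overlapped between groups. All 5 contain LIN9, so they are not independent of each other. Of single genes tested, 51.2% had ranges that did not overlap, and the share among ratios of other genes was not computed. The exact two-sided permutation p was 0.10 for each, the smallest that 3 against 3 libraries allow, and 0.114 adjusted over the 8 ratios computed.

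Of the pocket protein genes RB1 fell, while RBL1 and RBL2 did not pass the rule for a call. RB1, the founding tumor suppressor of the family, measured 41.4, 64.0 and 47.7 CPM in NC and 22.2, 17.2 and 23.0 CPM in si-EIF5A2. NC replicate 2 was well above the other NC libraries, and all knockdown libraries were below NC. RB1 (chr13:48303726-48599436, plus strand) fell from 51.1 ± 11.7 to 20.8 ± 3.13 CPM, with a log2 fold change of -1.29 ± 0.19 (SE, edgeR adjusted p = 0.00131). Without NC replicate 2 it was -1.10, still past the threshold.

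RBL1, which encodes the pocket protein that is mostly made in cycling cells, measured 8.71, 8.29 and 7.61 CPM in NC and 5.55, 6.44 and 6.25 CPM in si-EIF5A2. Each knockdown library was below NC. The log2 fold change of RBL1 (chr20:36996349-37095995, minus strand) was -0.43 ± 0.14 (SE), with an edgeR adjusted p of 0.0421 but a fold change under 1.5, so it was not called.

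RBL2 encodes the pocket protein that predominates in DREAM of resting cells. It measured 24.8, 25.4 and 29.3 CPM in NC and 32.2, 29.0 and 31.6 CPM in si-EIF5A2. The group ranges met, since si-EIF5A2 replicate 2 lay just below NC replicate 3. The log2 fold change of RBL2 (chr16:53433977-53491649, plus strand) was 0.22 with a 95% interval from -0.01 to 0.46 (edgeR adjusted p = 0.127).

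The composition of the pocket protein transcripts was then compared as CPM per kilobase of exon, which allows levels of different genes to be set side by side. RB1 made up 57.0, 67.1 and 58.3% of the summed pocket protein transcripts in NC and 39.3, 34.6 and 39.9% in si-EIF5A2. RBL2 made up 30.1, 23.5 and 31.6% in NC and 50.1, 51.4 and 48.4% in si-EIF5A2. RB1 was thus the most abundant pocket protein transcript in every NC library, and RBL2 was so in every knockdown library.

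The mean share of RB1 was lower by 22.9 percentage points and that of RBL2 higher by 21.6 points, and neither overlapped between groups (exact two-sided permutation p = 0.10 for each, the smallest possible, and 0.15 adjusted over 3 shares). The share of RBL1 was 10.8% in NC and 12.1% in si-EIF5A2 and overlapped (exact permutation p = 0.50). Shares within a library sum to a fixed total, so they are not independent of each other. With the longest annotated transcript as the length, the share of RB1 went from 60.4 to 36.9% and that of RBL2 from 31.2 to 53.9%. The sum of the 3 transcripts was 11.3, 14.8 and 12.7 CPM per kilobase in NC and 8.77, 7.71 and 8.94 in si-EIF5A2, so that the knockdown libraries held 65.6% of the NC mean.

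**Figure D3:**
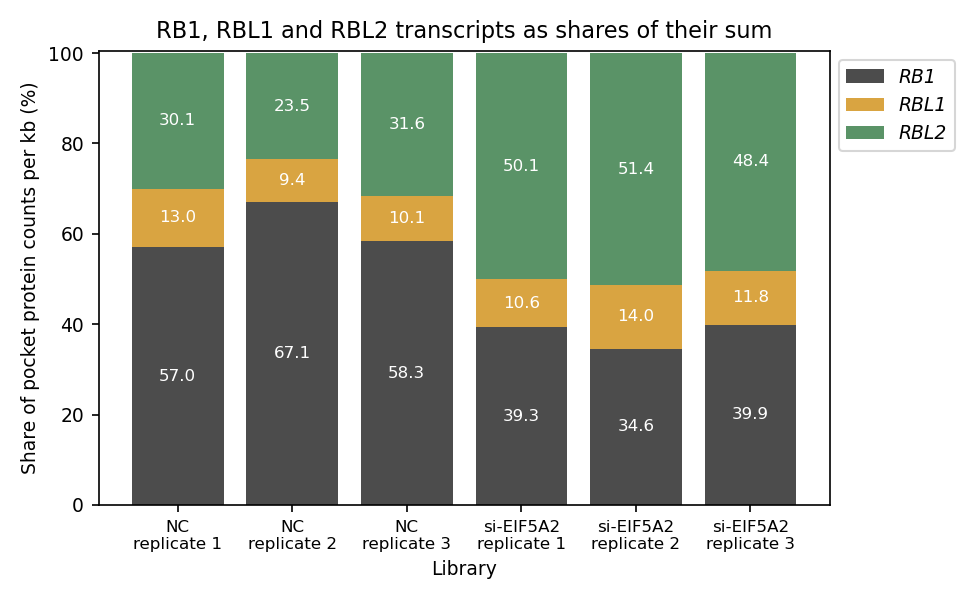
Share of each pocket protein gene in the summed CPM per kilobase of RB1, RBL1 and RBL2. Each bar is a library and the vertical axis is percent. RB1 is the largest share in the 3 NC libraries and RBL2 in the 3 si-EIF5A2 libraries.

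Ordered by mean CPM per kilobase, the NC libraries had MYBL2 (27.5) first, followed by FOXM1 (16.4), RB1 (7.91), RBBP4 (6.76), RBL2 (3.62), LIN37 (3.42), LIN52 (2.40), RBL1 (1.38), LIN54 (1.24) and LIN9 (1.11). Neighbours whose ranges overlapped were RB1 and RBBP4, RBL2 and LIN37, RBL1 and LIN54, and LIN54 and LIN9. In si-EIF5A2 the order opened with RBBP4 (7.85), followed by MYBL2 (4.72), RBL2 (4.23), FOXM1 (3.41), LIN37 (3.33), RB1 (3.23), LIN52 (1.51), RBL1 (1.02), LIN54 (0.914) and LIN9 (0.426). From MYBL2 to RB1 each neighbour in that order overlapped the next, as did RBL1 and LIN54. MYBL2 and FOXM1 therefore stood above all the MuvB and pocket protein genes in NC, and within their range in si-EIF5A2, whereas LIN9 was last in both.

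**Figure D4:**
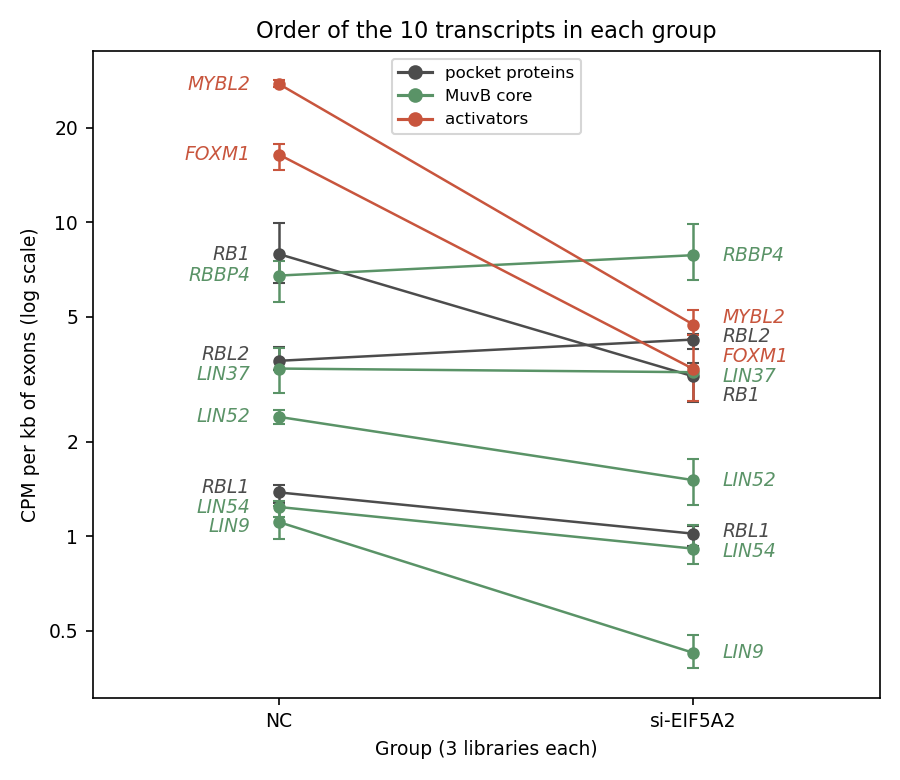
Expression per kilobase of exon of the 10 genes. The vertical axis is CPM per kilobase on a log scale, and the horizontal axis is the group. Points are group means, with a line joining the groups for each gene. Bars run from the lowest to the highest library of the group. MYBL2 and FOXM1 lead in NC, and RBBP4 leads in si-EIF5A2.

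Genes that act on these proteins were described from lists chosen by function. Of the cyclins and kinases that phosphorylate pocket proteins, 5 of the 7 tested fell and 1 rose, with a median log2 fold change of -0.78. Over all genes tested 13.6% fell and 11.1% rose. CDK4, the G1 kinase of the D-type cyclins, fell from 347 ± 77.1 to 78.9 ± 5.50 CPM (log2 fold change -2.14). Cyclin D1 (CCND1) and CDK2 fell with log2 fold changes of -0.78 and -0.66. The E-type cyclins moved oppositely. CCNE2 fell from 4.95 ± 0.339 to 0.821 ± 0.0565 CPM, whereas CCNE1 rose from 8.15 ± 0.109 to 28.1 ± 1.88 CPM, with a log2 fold change of 1.78 (edgeR adjusted p = 1.46e-05).

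Of the 10 E2F and DP genes, 3 fell and 1 rose, compared with 13.6% and 11.1% of all genes tested, so the count risen is near that share. The median log2 fold change was -0.37. E2F4 and E2F5, which carry DREAM to DNA, did not pass the test (log2 fold changes of -0.50 and -0.24, edgeR adjusted p of 0.0594 and 0.109). All their si-EIF5A2 libraries were below NC, as in 26.5% of all genes tested. For E2F4 the highest of them, at 75.4 CPM, all but met NC replicate 1 at 75.5 CPM. NC replicates 2 and 3 of E2F4 were at 122 and 116 CPM. E2F2, an activating E2F, fell from 1.46 ± 0.357 to 0.148 ± 0.144 CPM, with 1 knockdown library at 0. The atypical repressors E2F7 and E2F8 moved apart, with E2F7 rising from 77.5 ± 3.79 to 130.0 ± 9.02 CPM (log2 fold change 0.75) and E2F8 falling from 2.31 ± 0.177 to 0.469 ± 0.359 CPM (log2 fold change -2.30). The calls of E2F2 and E2F8 rest on few counts. E2F2 lost its call without NC replicate 1, 2 or 3 and without si-EIF5A2 replicate 1 (edgeR adjusted p from 0.0532 to 0.0771), and E2F8 without NC replicate 1, 2 or 3 and without si-EIF5A2 replicate 3 (edgeR adjusted p from 0.0658 to 0.0776). E2F1, named here after its values were seen, was the other gene that fell, and without NC replicate 3 it was the 1 E2F or DP gene called as fallen.

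Among the 11 genes that regulate MuvB, B-MYB or FOXM1 by phosphorylation or degradation, 7 fell and 1 rose, with a median log2 fold change of -0.68. The shares over all genes tested were 13.6% and 11.1%. CCNA2 (cyclin A2) and PLK1, whose kinase activities switch on B-MYB and FOXM1, fell the most, with log2 fold changes of -3.46 and -3.10. LATS2, a kinase of the Hippo pathway that acts on DREAM assembly through DYRK1A, rose from 52.0 ± 2.54 to 104.0 ± 10.2 CPM (log2 fold change 0.99). DYRK1A itself measured 4.77, 5.56 and 4.83 CPM in NC and 5.14, 5.08 and 9.57 in si-EIF5A2, with the last library alone standing out (log2 fold change 0.38, edgeR adjusted p = 0.305). CDKN1A, the p21 inhibitor that lowers the kinase activity toward pocket proteins, measured 986, 850 and 799 CPM in NC and 1010, 1070 and 993 CPM in si-EIF5A2. All 3 knockdown libraries were above NC, as in 24.7% of all genes tested. The log2 fold change of 0.22 did not pass the test (edgeR adjusted p = 0.0938).

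Close relatives and other partners were compared next. Of 5 paralogs tested 2 fell, compared with 13.6% of all genes tested. They were MYBL1, which encodes A-MYB, from 26.0 ± 1.75 to 12.6 ± 0.522 CPM, and FOXO1, from 12.7 ± 1.51 to 6.27 ± 0.644 CPM. RBBP7, the nearest relative of RBBP4, had a log2 fold change of -0.18 (edgeR adjusted p = 0.184). Of 19 other subunits of complexes that contain RBBP4, 4 fell (21.1%) and 1 rose (2 rose without si-EIF5A2 replicate 1). Over all genes tested the shares were 13.6% and 11.1%. The median log2 fold change of these subunits was -0.06. CHAF1A and CHAF1B, the chromatin assembly subunits that work with RBBP4 during DNA replication, fell with log2 fold changes of -1.86 and -1.91, and MTA1 of the NuRD complex rose by 0.90.

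Lists of G2/M and G1/S genes, chosen by hand as known targets of these complexes and with earlier results of these data known, were described beside the 13.6% of all genes tested that fell. Of 49 G2/M genes tested, all 49 fell, with a median log2 fold change of -2.67, and the mitotic kinesins KIF23 and KIF14 fell the most (-4.25 and -3.90). Of 46 G1/S genes 42 fell, with a median of -1.54, led by the replication genes MCM10 and ORC1, at -3.30 and -3.26. The lists share genes, so their counts are not separate results. The regulators CCNA2, PLK1, CDK1 and CCNB1 also count among the G2/M genes, and CHAF1A and CHAF1B among the G1/S genes. CDK2 counts both among the cyclins and kinases of pocket proteins and among the regulators. The log2 fold change of MYBL2 lay between the quartiles of the G2/M genes (-2.98 and -2.30), and that of FOXM1 lay just above the upper one. The changes of RB1 and LIN9 lay between the quartiles of the G1/S genes (-1.93 and -0.96). Most of these targets are known for their expression in proliferating cells, and the part of cell cycle position in the fall of MYBL2, FOXM1 and LIN9 was not tested.

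**Figure D5:**
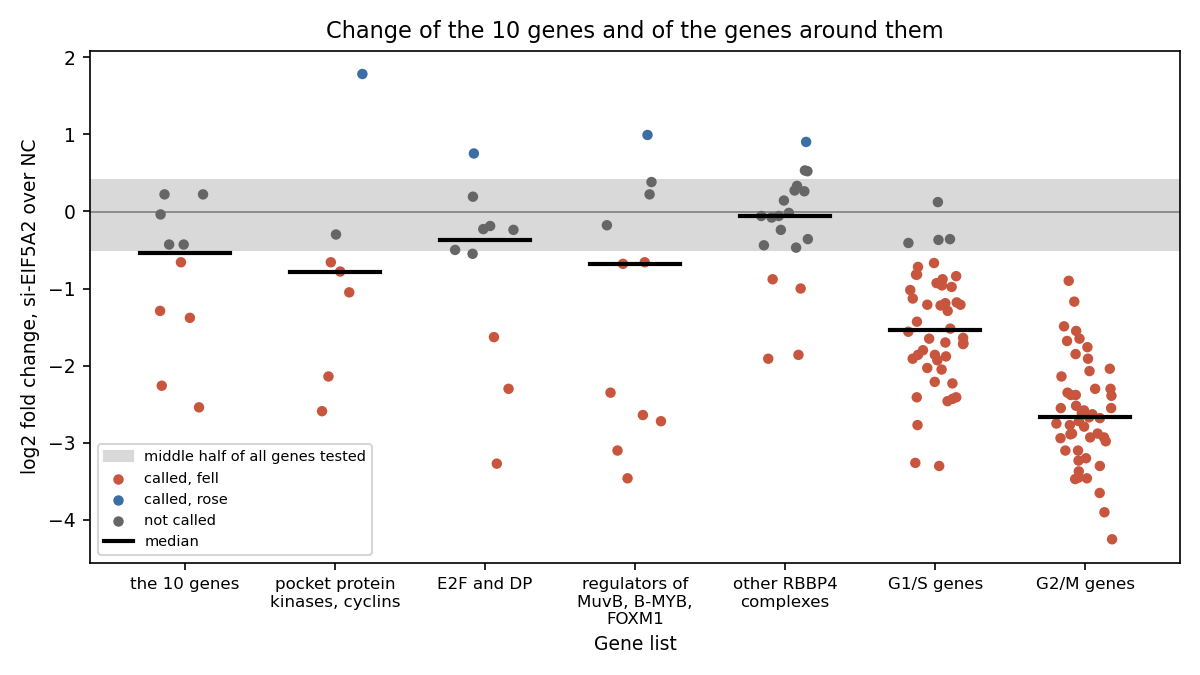
Log2 fold change of si-EIF5A2 over NC for the 10 genes and for the lists of genes around them. Each point is a gene, coloured by its call, black bars are list medians, and the gray band spans the quartiles of all genes tested (-0.50 to 0.41). The 49 G2/M genes all lie below 0, whereas the median of the other RBBP4 complexes is -0.06.

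Finally, the genes whose pattern over the 6 libraries was most like each member were found among 8844 genes averaging at least 10 CPM, with the Euclidean distance taken on log2 CPM centred on the mean of each gene. For MYBL2 they were IDH2 (distance 0.118), BUB1 (0.192) and TK1 (0.208), and for FOXM1 they were LARS2 (0.202), PTPN18 (0.214) and LIG1 (0.271). BUB1 is a spindle checkpoint kinase, TK1 a thymidine kinase and LIG1 a replicative DNA ligase. RB1 was closest to INSYN2B (0.312), ANP32E (0.339) and MTOR (0.344), and LIN9 to SEC23A (0.182), UBE4A (0.260) and VCL (0.272). The nearest neighbour of the other genes was ERAP2 for RBL2 (0.0336), IDH3G for RBL1 (0.0469), GAR1 for LIN37 (0.108), ANKRD28 for LIN52 (0.122), ATF7IP for LIN54 (0.157) and KDSR for RBBP4 (0.240). These distances describe likeness over libraries from 2 conditions only, and nothing about function was inferred from them.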

How the data were processed

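RNA was measured by paired-end mRNA sequencing in 6 SKOV3 libraries. The deposited values are estimated counts per Ensembl gene, which the authors made with StringTie and ballgown, not divided by library size or length. Because they are estimated from coverage, they move in steps of about 3.69 counts per fragment. The aligner and human genome build are not given in the sources used here. The submitters' processing notes name Bowtie 0.12.2 and the mouse builds mm8 and mm9 without a role, although the gene identifiers are human. Of 58825 identifiers, 58552 matched GENCODE release 29 (GRCh38), from which coordinates and exon lengths were taken.

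Estimated counts, already whole numbers, were tested with edgeR 4.0.16 in R 4.3.3 (filterByExpr, TMM normalization, robust quasi-likelihood fit, Benjamini-Hochberg adjustment over 16208 genes). Calls required a fold change over 1.5 together with an adjusted p below 0.05. CPM used TMM library sizes, and CPM per kilobase used the union of exons. The shallowest library had 63.3% of the total of the deepest, and no pair of libraries was identical. The procedure was also run on simulated counts. These lacked the steps of the deposited values and held few changed genes, so they do not show how the test behaves under such conditions. Ratios and shares were compared by exact two-sided permutation tests with SciPy 1.17.1.

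The 10 genes and the lists were chosen with earlier results of these data known. The genes named were the 10 members, in each list up to 2 called genes with the largest fall and up to 2 with the largest rise, a few set regulators and paralogs, the 3 nearest profiles of a member, and overlapping genes and pseudogenes of members. Genes shared between lists were also named. Alternatives were DESeq2 1.42.0, other normalizations, filters and thresholds, a replicate block and leaving out each library.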

Additional observations from a re-analysis of the deposited data

How the results depend on the processing

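MYBL2, FOXM1, RB1 and LIN9 were called as fallen in all 18 alternatives, with log2 fold changes from -2.63 to -2.48, -2.48 to -2.13, -1.43 to -1.10 and -1.49 to -1.29. LIN52 was called in 15 of 18, losing its call without NC replicate 2, without si-EIF5A2 replicate 2 and at the second threshold used here (unadjusted p under 0.05 and a fold change over 2 or under 0.5). Not all 18 were able to change a call. Both changes of threshold reused the main fit, and taking away the limit on the fold change could not remove a call. Adding the overlapping gene changed the counts of LIN37 only. The number of the 10 genes called as fallen stayed at 4 to 6. LIN37, which was not called, reversed to a log2 fold change of 0.08 without NC replicate 2 (edgeR adjusted p = 0.759), within a range of -0.16 to 0.08 over the libraries left out. The number of E2F and DP genes called as fallen was 1 with at least 10 counts required in every library, an alternative that removes the low E2F2 and E2F8, and 1 to 3 with a library left out. The number of RBBP4 partners called as risen was 1 to 2 with a library left out, 5 with no limit on the fold change and 0 at the second threshold. With no limit on the fold change 1 paralog was called as risen. At the second threshold 3 kinases and cyclins were called as fallen, and 0 E2F and DP genes and 0 regulators as risen, where 1 of each had been. The causes of these moves, other than the stated change of filter or threshold, were not tested. Deviations of same-numbered libraries correlated at -0.024, 0.005 and -0.003. Pairing by library number was thus not seen over all genes, but the labels do not say whether the libraries were prepared in pairs. With a replicate block 5 of the 10 genes were called as fallen, MYBL2 had a log2 fold change of -2.55, and E2F2 lost its call (edgeR adjusted p = 0.0626). Low counts limit the precision of LIN9 among the 10 genes, whose lowest value stands for about 22 fragments, and of E2F2 and E2F8 among the lists. With 3 libraries a group no permutation test could reach a p under 0.10.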

Other observations

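Several values belong to no comparison of the report. RBBP4P2 had 4, 4 and 0 counts in NC and 25, 4 and 6 in si-EIF5A2, whereas RBBP4P3, RBBP4P5 and RBBP4P6 were at 0 in every library. AKTIP, which shares 610 exon bases with RBL2 on the opposite strand, had 828, 861 and 500 counts in NC and 1038, 657 and 691 in si-EIF5A2. SYNC, which shares 1706 exon bases with RBBP4 on the opposite strand, had 102, 180 and 61 counts in NC and 46, 120 and 53 in si-EIF5A2. The strand setting of the counting is not given in the sources used here, so reads of these overlapping genes cannot be told apart from those of RBL2 and RBBP4. The same holds for the opposite-strand genes that overlap LIN37 and FOXM1.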
